A study of Mus musculus with 11 samples.

Results

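Of the 11 arrays in the study, 8 carried the number 4 or 3 in their labels, and these form a comparison of the 4 arrays labelled rep4 with the 4 arrays labelled rep3. They were chosen by label alone, with 1 rep4 and 1 rep3 array for each of Liver, MLN, PLN and Spleen, the organs that gave the dendritic cells (the labels do not spell out MLN and PLN), and the arrays of an organ were treated as a pair. Each array measured total RNA of T cells from B10.BR mice after 4 days with dendritic cells of 1 of these organs from C57BL/6 mice, so that both strains and the time were shared by rep4, rep3 and the 3 remaining arrays, labelled rep2 (Liver, MLN and PLN). The labels do not say what the number stands for. It is read here as a culture run, and a run, an RNA preparation and a set of arrays handled together cannot be told apart. The labels likewise do not say whether mice were pooled, which T cells were taken, or whether dendritic cells were removed before RNA was made, so the p-values cover no more than array-to-array spread, which may be technical.

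B10.BR and C57BL/6 mice differ in their major histocompatibility complex, and T cells of the first strain respond to dendritic cells of the second as to a graft. Stimulated T cells leave quiescence, build ribosomes, copy their DNA and become effectors, which secrete cytokines or kill target cells with perforin and granzymes. Interleukin 2 is made early in that course.

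Levels are given as log2(intensity + 16) after quantile normalization, a scale on which an intensity of 0 is 4.00, and a difference is rep4 minus rep3, averaged over the 4 organ pairs and given with its standard error. A gene is called where limma's paired test gave a Benjamini-Hochberg adjusted p under 0.05 over all 12393 genes. Values per array follow the order Liver, MLN, PLN and Spleen. Of the 12393 genes, 2812 (22.7%) were called, 1482 of them higher in rep4 (12.0%) and 1330 lower (10.7%), while the median difference over all genes was 0.01. Counts of called members in a list are to be read against these shares. The same fit called 2 genes (0.0161%) between the organs of the dendritic cells, Lmna, a nuclear lamin, and Sema4a, a semaphorin, named here after their values were seen, with 979 genes at an unadjusted p under 0.05, against 4229 for the number. The number held 36.4% of the sum of squares over all genes, with 1 degree of freedom, the organ 33.4% with 3 and the residual 30.2% with 3. Among the called genes, 281 differed by more than 1 on the log2 scale, 172 higher and 109 lower in rep4. The direction repeated across organs: of the genes called in 3 pairs, 96.1 to 96.5% moved the same way in the pair left out, against 68.6 to 69.2% of all genes. Array quality was alike, with median intensities of 144.3 to 170.4 on rep4 arrays and 151.7 to 163.55 on rep3 arrays, and actin 3′ to 5′ signal ratios of 1.08 to 1.15 and 1.08 to 1.11.

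**Figure D1:**
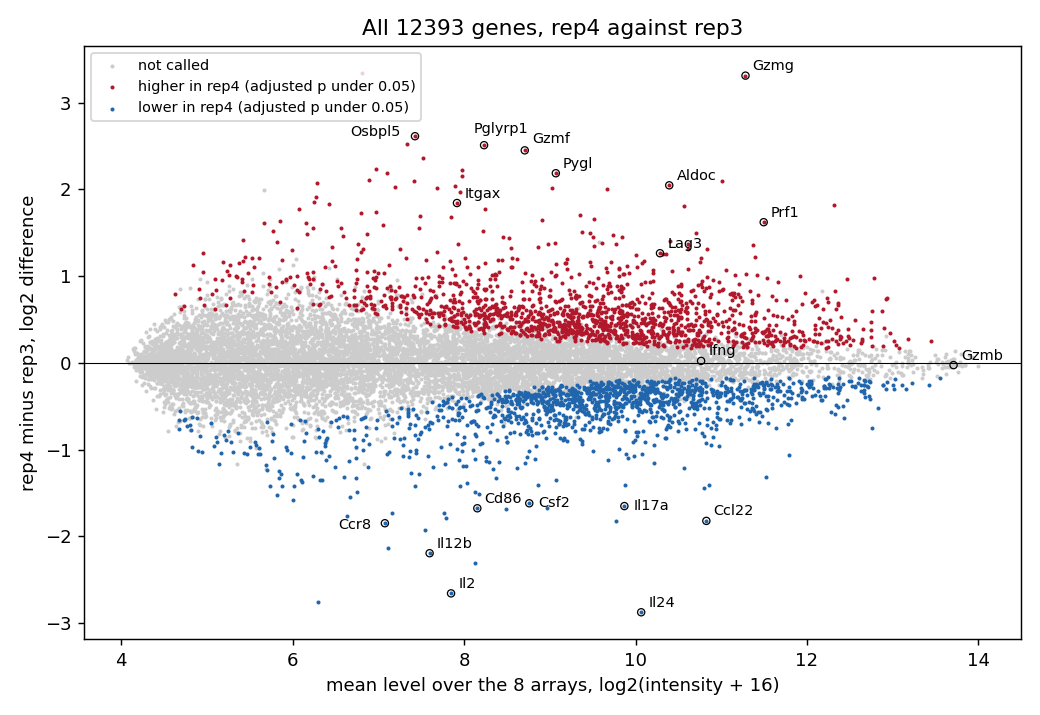
Each point is 1 of 12393 genes, with its mean level over the 8 arrays in log2(intensity + 16) on the x axis and the rep4 minus rep3 log2 difference on the y axis. Red points (1482) were called higher in rep4 and blue points (1330) lower. Gzmg stands at 3.31 and Il24 at -2.88, while Gzmb and Ifng lie at 0.

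The labelled cell type was checked first. Cd3e, a signalling chain of the T cell receptor, had a mean level of 11.66 in rep4 and 10.75 in rep3, and Cd8a, a chain of the killer T cell coreceptor, had 11.57 and 11.64. RNA of other cells was present as well. Ighm, the heavy chain of immunoglobulin M made by B cells, had 13.20 in rep4 and 13.15 in rep3. Other B cell markers were much dimmer, with Cd79a at 7.56 and 6.97 and Cd79b at 8.08 and 7.57, so Ighm alone does not give the amount of B cell RNA. Cd74, the chaperone of class II molecules in antigen-presenting cells, had 10.45 in rep4 and 10.94 in rep3. In bulk RNA, fewer cells of a type and less RNA per cell cannot be told apart. Dendritic cell and class II genes moved with the number. Of 19 measured, 1 was called higher in rep4 and 11 lower (12.0% and 10.7% over all genes), with a median of -0.49. Their summed intensity ran from 8410.4 to 11347 on rep4 arrays and from 16984 to 18590.3 on rep3 arrays, and no member was at 0. Cd86, a costimulatory ligand on dendritic cells, had levels of 7.30, 7.82, 7.35 and 6.79 in rep4, against 8.70, 9.17, 9.12 and 8.98 in rep3, a difference of -1.68 ± 0.16 (adjusted p = 0.000447). Every rep4 array lay below every rep3 array, which was so, in one direction or the other, for 25.3% of all genes. Cd83, a maturation marker, differed by -1.35, Fscn1, the actin bundler of mature dendritic cells, by -1.32, and H2-Aa, a class II chain, by -0.59 (a call lost without the Spleen pair or the variance trend, adjusted p up to 0.063), while H2-Ab1, another class II chain, differed by 0.33 and was not called. Il12b, the shared subunit of interleukins 12 and 23 made by myeloid cells, had levels of 6.87, 6.43, 6.31 and 6.40 in rep4 and 9.01, 8.25, 8.76 and 8.75 in rep3. Its difference of -2.19 ± 0.15 (adjusted p = 0.000164) was the fourth largest decrease among the genes named by size. What part the dendritic cell RNA has in the differences below was not tested.

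Of 19 measured genes of cytotoxic granules, 10 were called higher in rep4, against 12.0% of all genes, and none lower, with a median of 0.48 against 0.01 over all genes, and the counts were 10 and 0 in each of 14 alternative settings. Prf1, the pore-forming perforin, had levels of 12.49, 12.21, 12.46 and 12.06 in rep4, against 10.88, 10.72, 10.89 and 10.24 in rep3. The lowest rep4 array lay above the highest rep3 array, and the difference was 1.62 ± 0.06, a 3.08-fold change (adjusted p = 4.99e-05). A second, dim Prf1 probe set (mean level 6.54) differed by 0.07, and the mean of both by 0.84 (adjusted p = 0.000319). Gzmg, granzyme G, had 13.10, 13.15, 12.79 and 12.71 in rep4, against 9.70, 10.66, 9.83 and 8.31 in rep3. Its rep4 arrays lay close together and its rep3 arrays were spread more widely, with Spleen lowest in both runs, and the difference of 3.31 ± 0.26 corresponds to 9.92-fold (adjusted p = 0.000246). Gzmf, granzyme F, differed by 2.45 ± 0.16, Gzme, granzyme E, by 2.09 ± 0.13 and Gzmk, granzyme K, by 1.71 ± 0.16. Ctsw, a cysteine protease of killer lymphocytes, was higher by 1.20 and Serpinb6b, a serine protease inhibitor, by 0.94. Gzmd (1.82) and Gzmc (0.97), which were named after their values were seen, were called higher too.

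The proteases best known from killer T cells were not called. Gzmb, granzyme B, had 13.76, 13.71, 13.66 and 13.66 in rep4, against 13.66, 13.85, 13.71 and 13.67 in rep3, a difference of -0.03 ± 0.06 (adjusted p = 0.807). Gzma, granzyme A, differed by 0.14 ± 0.07 (adjusted p = 0.210). The groups overlapped for both genes, and the 2 stood at ranks 16 and 13 of 12393 by mean level, close to the brightest signals of the array. Fasl, the ligand that triggers death through Fas, differed by 0.16 ± 0.07 (adjusted p = 0.173).

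The genes for granzymes C to G lie beside Gzmb on chromosome 14, and their products are close paralogs, so that signal on the array may be shared among them and their single values are uncertain. The order along the chromosome in the RefSeq table of GRCm38.p6 is Mcpt4, Mcpt8, Ctsg, Gzme, Gzmd, Gzmg, Gzmn, Gzmf, Gzmc and Gzmb. This neighbourhood was looked up after the values were seen. Of its 10 genes, 8 were called higher in rep4, among them Mcpt8, a mast cell protease gene of basophils, at 1.28, Ctsg, cathepsin G, at 1.12 and Gzmn at 1.15; the last 2 lost their calls in 2 and 3 of the 13 alternative settings that tested them, with adjusted p up to 0.06 and 0.0882. The stretch was cut at Mcpt4 (0.29) and Gzmb, the 2 that were not called, so their place at its ends follows from that choice. The count of 8 depends on it as well, and 12.0% of all genes were called higher. The 150 bases before the annotated start are printed from RefSeq on the minus strand of GRCm38.p6, the reference strain and not B10.BR, to show a stretch that 5 of the 8 genes called higher share. Capitals mark the longest run that Gzmc, Gzmd, Gzme, Gzmf and Gzmg share before their starts, 20 bases long. The windows are chr14:56234658-56234807 for Gzmc, chr14:56132594-56132743 for Gzmd, chr14:56120626-56120775 for Gzme, chr14:56211408-56211557 for Gzmf, chr14:56159580-56159729 for Gzmg and chr14:56262335-56262484 for Gzmb.
Gzmc: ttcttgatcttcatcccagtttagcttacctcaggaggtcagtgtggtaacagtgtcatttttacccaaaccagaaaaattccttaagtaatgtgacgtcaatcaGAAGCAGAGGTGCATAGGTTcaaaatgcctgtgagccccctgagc
Gzmd: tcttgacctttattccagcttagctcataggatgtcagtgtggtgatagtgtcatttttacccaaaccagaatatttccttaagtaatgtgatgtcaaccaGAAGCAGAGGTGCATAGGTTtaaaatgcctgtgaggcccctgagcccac
Gzme: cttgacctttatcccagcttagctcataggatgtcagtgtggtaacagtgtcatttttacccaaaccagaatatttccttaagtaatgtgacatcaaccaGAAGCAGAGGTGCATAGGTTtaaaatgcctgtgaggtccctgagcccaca
Gzmf: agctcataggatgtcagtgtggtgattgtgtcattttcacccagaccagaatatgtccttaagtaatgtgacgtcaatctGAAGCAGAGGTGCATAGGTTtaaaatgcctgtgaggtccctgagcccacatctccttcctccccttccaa
Gzmg: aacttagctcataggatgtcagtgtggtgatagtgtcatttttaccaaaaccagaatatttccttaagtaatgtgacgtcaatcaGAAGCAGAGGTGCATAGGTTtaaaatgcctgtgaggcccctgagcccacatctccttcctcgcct
Gzmb: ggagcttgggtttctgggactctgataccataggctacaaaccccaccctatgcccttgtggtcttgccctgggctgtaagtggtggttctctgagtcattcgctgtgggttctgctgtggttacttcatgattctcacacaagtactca
Read on both strands, the run occurred in 5 of 32851 RefSeq windows of 300 bases (0.0152%), those of the same 5 genes. The windows of Gzmn, Mcpt8 and Ctsg, which were called higher too, did not hold it, nor did those of Gzmb and Mcpt4, so the run does not separate called from uncalled neighbours. It is a feature of paralogous sequence and a description only.

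Of 13 killer lectin receptor and NK-associated genes, 7 were called higher in rep4 and none lower, with a median of 0.49. For these and the marker counts below, the shares over all genes were 12.0% higher and 10.7% lower. Klrd1, the CD94 chain of inhibitory and activating receptors, had levels of 12.28, 11.88, 11.84 and 12.19 in rep4, against 10.95, 10.32, 10.78 and 10.69 in rep3, a difference of 1.36 ± 0.08 (adjusted p = 0.000108). Klra7, of the Ly49 family, was higher by 1.15, Fcer1g, an adaptor of activating receptors, by 1.15 and Cd244a, the receptor 2B4, by 0.91. Of 5 markers of natural killer cells, 3 were called higher and none lower, with summed intensities of 5253 to 7154 in rep4 and 1831 to 2720 in rep3, a list that includes Prf1. Ncr1, a receptor specific to natural killer cells, had a level of 6.15 in rep4 and 6.33 in rep3 and was not called. Of 6 markers of CD8 T cells, 4 were called higher and none lower. Cd8b1, the beta chain of the CD8 coreceptor, was higher by 0.54 ± 0.08 (adjusted p = 0.00269), and Cd8a differed by -0.06 (adjusted p = 0.579). Of 4 markers of CD4 T cells, 2 were called lower. Cd4, the helper T cell coreceptor, had levels of 10.08, 9.62, 9.71 and 10.19 in rep4, against 10.27, 10.07, 10.23 and 10.39 in rep3. Its groups overlapped, and its call (-0.34, adjusted p = 0.0148) was lost in 4 of 14 alternative settings, with adjusted p up to 0.082. Whether the share of CD8 T cells or of natural killer cells differed was not tested.

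**Figure D2:**
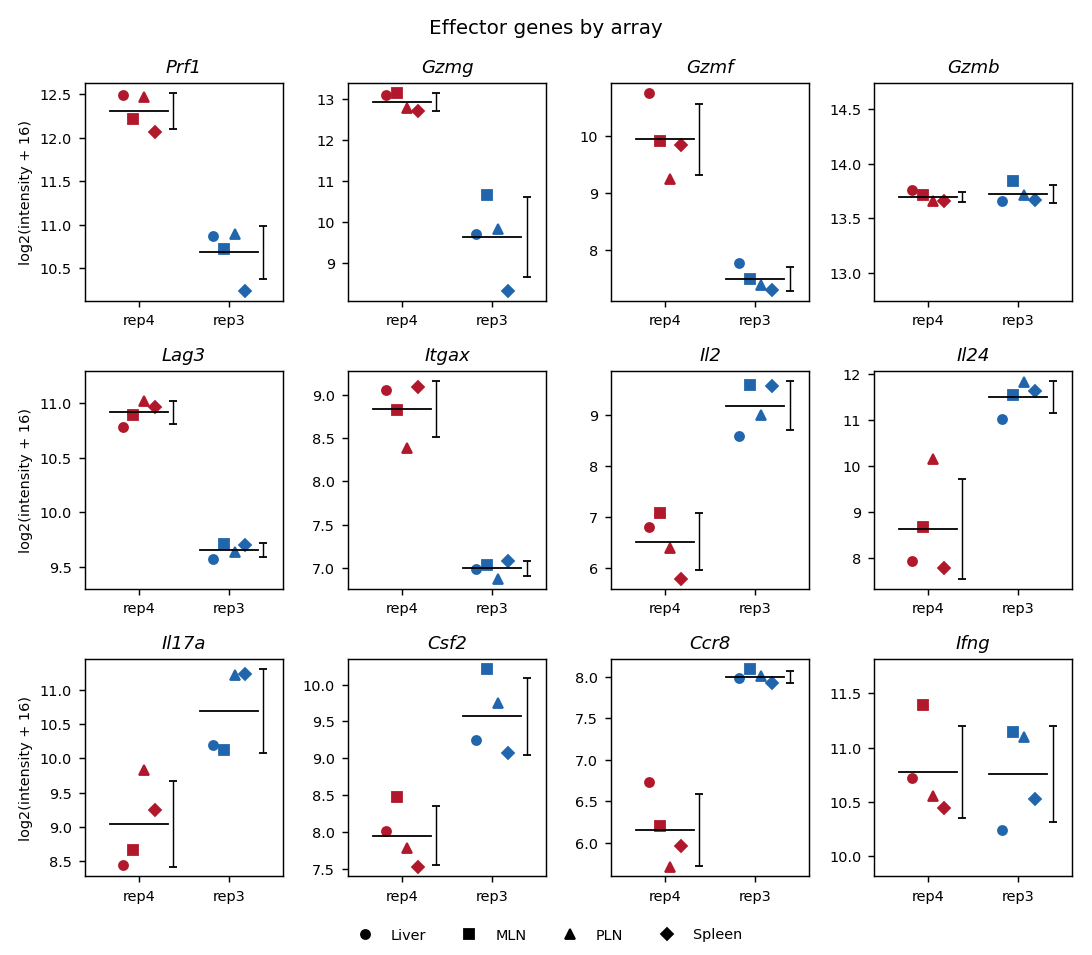
Levels of 12 effector genes in log2(intensity + 16) on each rep4 array (red) and rep3 array (blue). Marker shape gives the organ of the dendritic cells, the horizontal line is the mean of the 4 arrays and the bar beside it 1 SD. Prf1, Gzmg, Gzmf, Lag3 and Itgax are higher on every rep4 array, Il2, Il24, Il17a, Csf2 and Ccr8 are lower on every rep4 array, and Gzmb and Ifng overlap.

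Among secreted cytokines, Il2, Csf2, Il3 and Lif were called lower, while interferon gamma, the type 1 cytokine, was not called. Il2, the T cell growth factor, had levels of 6.81, 7.07, 6.40 and 5.80 in rep4, against 8.58, 9.58, 8.99 and 9.56 in rep3. The groups lay well apart, and the difference was -2.66 ± 0.28, a 6.31-fold decrease (adjusted p = 0.000673). Csf2, the growth factor GM-CSF, had 8.01, 8.48, 7.79 and 7.53 in rep4, against 9.25, 10.22, 9.75 and 9.07 in rep3, a difference of -1.62 ± 0.12 (adjusted p = 0.000229). Il3, a growth factor for myeloid cells, differed by -1.67 ± 0.10 and Lif, a cytokine of the interleukin 6 family, by -1.83 ± 0.30. Ifng, interferon gamma, had 10.72, 11.39, 10.55 and 10.44 in rep4, against 10.24, 11.14, 11.10 and 10.53 in rep3, which overlap, and differed by 0.02 ± 0.15 (adjusted p = 0.947). Tnf, tumour necrosis factor, differed by -0.38 ± 0.21 (adjusted p = 0.249). Of the 19 type 1 cytokines, receptors and regulators, 7 were called higher and 3 lower (12.0% and 10.7% over all genes), with a median of 0.02. Without the Liver, MLN or Spleen pair 3, 4 and 3 were called higher. Ltb, lymphotoxin beta, was higher by 1.003 ± 0.09. The type 1 regulators Tbx21, the T-bet factor, at 0.58, and Eomes, its relative in killer T cells, at 0.44, and the receptor Cxcr3 at 0.48 were called higher, but each lost its call in 5 of 14 alternative settings, with adjusted p up to 0.143, 0.13 and 0.0933.

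Of 19 measured genes of type 2 and interleukin 10 family cytokines and their regulators, 2 were called higher and 10 lower, against 10.7% of all genes, with a median of -0.47; without the MLN or the Spleen pair 6 were called lower. Il24, of the interleukin 10 family, had 7.93, 8.66, 10.15 and 7.77 in rep4, against 11.01, 11.54, 11.82 and 11.64 in rep3. Its PLN array was the highest of rep4 and still below every rep3 array, and the difference of -2.88 ± 0.29, 7.34-fold, was the largest decrease named (adjusted p = 0.000566). Il5, the eosinophil growth factor, had 5.59, 6.65, 5.72 and 5.06 in rep4, against 6.43, 8.70, 7.51 and 7.46 in rep3. Each pair fell, but MLN of rep4 lay above Liver of rep3, and the difference was -1.77 ± 0.27 (adjusted p = 0.00317). Il13, the mucus-inducing cytokine, differed by -1.41 ± 0.23 and Il9, a mast cell growth factor, by -1.49 ± 0.20. Il4, the type 2 inducer, was called lower at -1.10 ± 0.24 (adjusted p = 0.0151), a call lost without the MLN, PLN or Spleen pair (adjusted p up to 0.0722). Ccr8, a chemokine receptor of type 2 and regulatory T cells, had 6.73, 6.20, 5.71 and 5.96 in rep4, against 7.98, 8.10, 8.004 and 7.92 in rep3, and differed by -1.85 ± 0.21 (adjusted p = 0.000833). Gata3, the factor that directs type 2 cells, differed by -0.25 ± 0.15 (adjusted p = 0.286), and Il10, an inhibitory cytokine, by -0.62 ± 0.23 (adjusted p = 0.103); neither was called. Stat6, which carries the interleukin 4 signal, was called higher at 0.40.

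Il17a, the cytokine that names the Th17 lineage, had levels of 8.44, 8.66, 9.83 and 9.25 in rep4, against 10.20, 10.13, 11.23 and 11.23 in rep3. PLN and Spleen were the highest organs in both runs, every pair fell and the difference was -1.65 ± 0.10 (adjusted p = 0.000108). Il21, a helper cytokine, was called lower at -1.08 ± 0.25, a call lost without the MLN pair (adjusted p = 0.0767) and without the variance trend (adjusted p = 0.0616). Of the 6 measured genes of the interleukin 17 lineage, 2 were called higher and 3 lower, with a median of -0.68; none was called higher without any 1 pair, and 1 lower without the MLN pair. Of 16 regulatory T cell genes, 2 were called higher and 6 lower (12.0% and 10.7% over all genes), with a median of -0.43. Foxp3, the factor that defines regulatory T cells, had 6.09, 5.76, 5.74 and 5.99 in rep4, against 7.57, 7.28, 7.50 and 7.41 in rep3, all low on this array, and differed by -1.55 ± 0.18 (adjusted p = 0.000957). Il2ra, the high-affinity interleukin 2 receptor chain, differed by -0.57 ± 0.06, and Tnfrsf18 (-0.64) and Tnfrsf4 (-0.70), costimulatory receptors of the tumour necrosis factor family, were lower too. Not all members fell: 7 of the 16 lay above 0. Among these Ctla4 was called higher at 0.31, a call lost in 5 of 14 settings. Of 15 genes of cytokine feedback and Pim kinases, 1 was called higher and 7 lower, with a median of -0.38. Socs1, an inhibitor of cytokine signalling, had 8.95, 9.50, 9.33 and 8.69 in rep4, against 10.002, 10.29, 10.28 and 10.39 in rep3, and differed by -1.12 ± 0.14 (adjusted p = 0.00121). Pim3, a kinase induced by cytokines, differed by -0.91, and by -0.54 and -0.21 on its dimmer probe sets.

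Among surface molecules of the tumour necrosis factor families, 6 of 22 were called higher (3 without the MLN pair) and 8 lower, with a median of -0.35. The shares over all genes were 12.0% higher and 10.7% lower. Tnfsf11, the ligand RANKL, differed by -1.23 ± 0.13 and Tnfsf8, the CD30 ligand, by -1.13 ± 0.13. Inhibitory receptors and their ligands gave calls in both directions. Lag3, which binds class II molecules, had 10.79, 10.89, 11.02 and 10.97 in rep4, against 9.57, 9.71, 9.63 and 9.70 in rep3, with little spread in either run and a difference of 1.26 ± 0.06 (adjusted p = 5.66e-05). Havcr2, the receptor TIM-3, was higher by 0.76 ± 0.10. Cd200, an inhibitory ligand, differed by -1.41 ± 0.11 and its receptor Cd200r1 by -1.14 ± 0.15. Pdcd1, the receptor PD-1, differed by -0.09 ± 0.15 (adjusted p = 0.743). Ctla4 was called higher at 0.31, a call lost in 5 of 14 settings (adjusted p up to 0.0977). Of the 10 measured members of the list, 4 were called higher and 2 lower, with a median of 0.25.

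Of 15 chemokine receptors, which guide migration, 6 were called higher in rep4 and 2 lower (12.0% and 10.7% over all genes), with a median of 0.13. Without the MLN pair 3 were called higher, and without the Spleen pair the median was -0.05. Cxcr6, the receptor for Cxcl16 on effector cells, had levels of 11.70, 11.42, 11.17 and 11.51 in rep4, against 10.42, 9.93, 9.80 and 9.66 in rep3, a difference of 1.498 ± 0.09 (adjusted p = 0.000108). Ccr2, a receptor for inflammatory chemokines, was higher by 1.47 ± 0.15 and Cxcr4, the receptor for Cxcl12, by 0.95. Of 15 effector chemokines, none was called higher and 3 were lower: Ccl22 (-1.82 ± 0.24) and Ccl17 (-1.07 ± 0.18), which dendritic cells make, and Cxcl16 (-1.11 ± 0.14). These fell beside the dendritic cell markers above, and their source was not tested. The T cell chemokines Ccl3 (-0.14), Ccl4 (0.07), Ccl5 (-0.33), Ccl1 (0.29) and Xcl1 (-0.15) were not called, with adjusted p of 0.729, 0.786, 0.236, 0.491 and 0.81.

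Of 19 integrins and genes for selectin ligands, 6 were called higher and none lower (12.0% and 10.7% over all genes), with a median of 0.20. Itgax, the integrin CD11c, which dendritic cells and also activated killer T cells carry, had 9.05, 8.82, 8.39 and 9.09 in rep4, against 6.98, 7.04, 6.88 and 7.09 in rep3. It was the single dendritic cell marker called higher, at 1.84 ± 0.14 (adjusted p = 0.000206). Itgb7, the beta chain of the gut-homing integrin, had 11.51, 12.03, 11.52 and 11.59 in rep4, against 10.49, 10.94, 10.59 and 10.61 in rep3, with MLN highest in both runs and a difference of 1.01 ± 0.05 (adjusted p = 7.09e-05). Its partner Itga4 differed by 0.16 ± 0.24 (adjusted p = 0.71), and Cd44, the adhesion receptor of activated T cells, by 0.00 ± 0.13 (adjusted p = 0.998).

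Of 19 measured genes of quiescence and lymph node homing, which T cells lower when stimulated, 11 were called higher in rep4 and 2 lower, with a median of 0.29. Members ran from -1.42 to 1.37, so that the largest single difference was a decrease. The shares over all genes, here and for the lists below, were 12.0% higher and 10.7% lower. Klf2, the factor that holds T cells quiescent and drives S1pr1, had 10.52, 10.72, 10.17 and 10.40 in rep4, against 8.99, 9.07, 9.07 and 9.20 in rep3. Every rep4 array lay above every rep3 array, and the difference was 1.37 ± 0.10 (adjusted p = 0.000193). S1pr1, the receptor for leaving lymph nodes, was higher by 0.83, Il7r, the interleukin 7 receptor, by 0.76 ± 0.06 and Foxo1, a factor upstream of Klf2 and Il7r, by 0.58. Of 4 Foxo1 probe sets, a dim one differed by -0.20. Ccr7, the lymph node homing receptor, was called higher at 0.29, a call lost in 5 of 14 settings (adjusted p up to 0.134). Of 17 genes of the T cell receptor complex and coreceptors, 6 were called higher and 3 lower (1 without the PLN pair), with a median of 0.14. These ran from -0.93 to 0.90, the largest again a decrease. Cd3e was higher by 0.90 ± 0.08, Cd28, the costimulatory receptor, by 0.76 and Cd3g by 0.66. The 21 S100, annexin and galectin genes, which rise in effector and memory T cells, had 13 called higher and 2 lower, with a median of 0.35. Anxa1, a phospholipid-binding protein, was higher by 1.45 ± 0.14 and Ahnak, a large scaffold protein, by 1.16 ± 0.09, while Anxa3 differed by -1.13 ± 0.11.

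**Figure D3:**
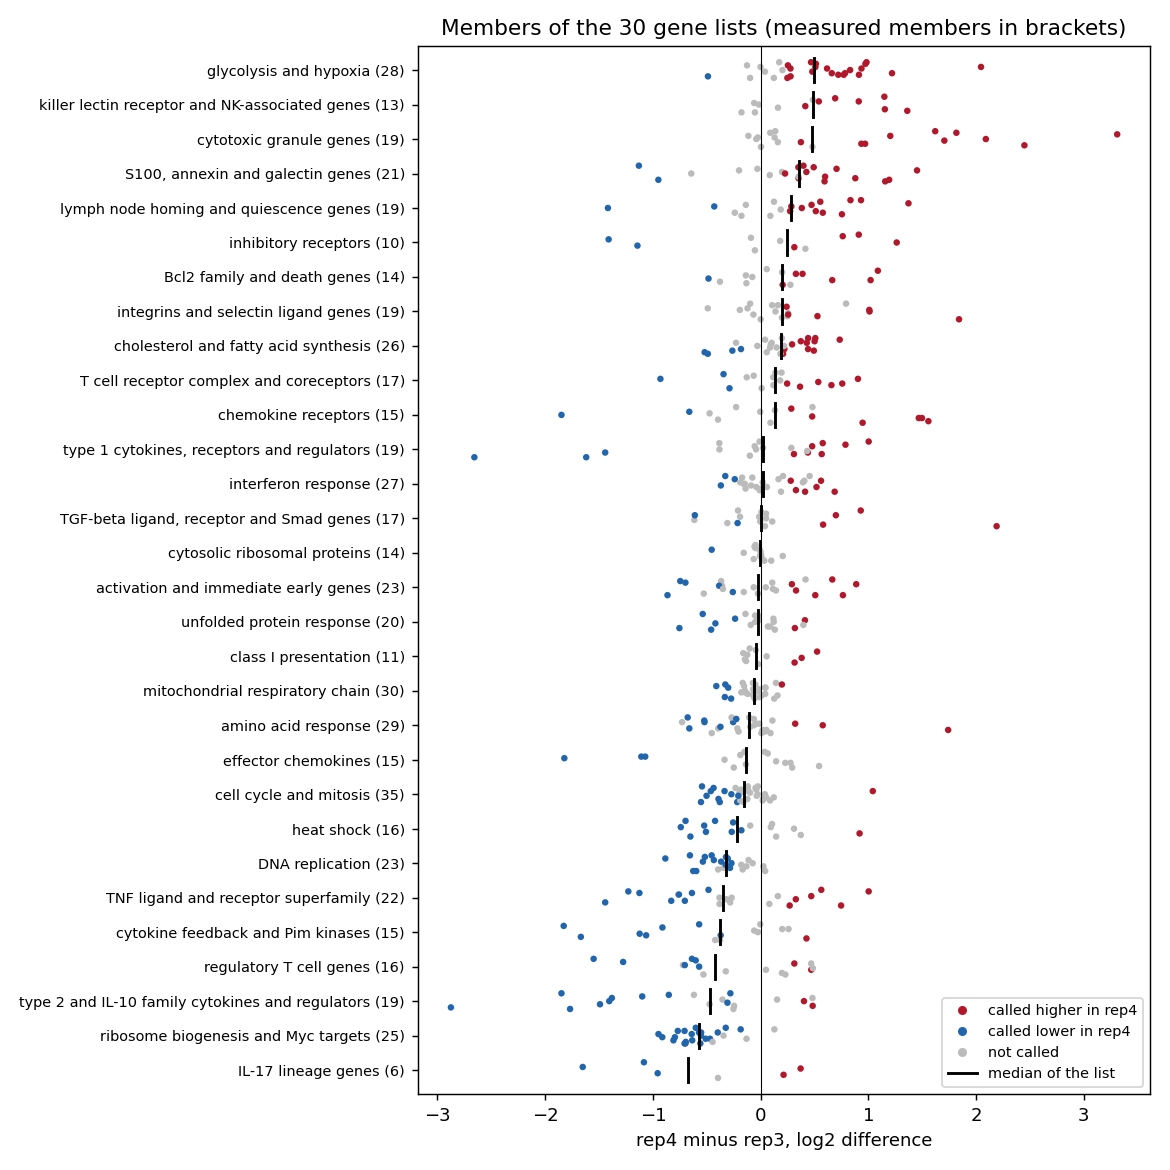
Each point is a measured member of 1 of 30 gene lists, placed by its rep4 minus rep3 log2 difference on the x axis, with lists ordered down the y axis by their medians (black bars). Red members were called higher in rep4, blue lower and grey not called. Glycolysis and hypoxia genes (median 0.49) stand at the top, and ribosome biogenesis genes (median -0.57) and interleukin 17 lineage genes (median -0.68) at the bottom.

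Of 28 genes of glycolysis and the response to low oxygen, 20 were called higher in rep4, against 12.0% of all genes, and 1 lower, with a median of 0.49. Aldoc, an aldolase, had levels of 11.29, 11.31, 11.44 and 11.63 in rep4, against 9.45, 9.08, 9.37 and 9.57 in rep3. Both runs were tight, and the difference of 2.05 ± 0.07, 4.13-fold, had the joint smallest adjusted p of the named genes (4.99e-05). Ndrg1, a classic hypoxia-induced gene, was higher by 1.22 ± 0.06, and Egln3 (0.97 ± 0.06) and Egln1 (0.91), the oxygen-sensing prolyl hydroxylases, were higher as well. Slc2a1, the glucose carrier GLUT1, had 11.56, 11.83, 12.07 and 11.80 in rep4, against 10.84, 11.28, 11.02 and 11.001 in rep3, and differed by 0.78 ± 0.08. Vegfa, the vascular growth factor, differed by 0.77 ± 0.12 and Pdk1, which keeps pyruvate out of mitochondria, by 0.72 ± 0.09. Hif1a, the oxygen-regulated factor itself, was the member called lower, with 11.88, 12.16, 12.22 and 12.14 in rep4, against 12.46, 12.60, 12.65 and 12.63 in rep3, a difference of -0.49. The glycolytic enzymes Ldha (0.00) and Pgk1 (0.04), with mean levels of 13.70 and 13.73 in rep4, against 13.70 and 13.69 in rep3, were not called. Among the genes named for size, Pygl, a glycogen phosphorylase, had 9.75, 10.66, 9.93 and 10.30 in rep4, against 7.63, 8.10, 8.13 and 8.05 in rep3, a difference of 2.19 ± 0.12 (adjusted p = 9.42e-05). Gbe1, the glycogen branching enzyme, differed by 2.15 ± 0.18.

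The hypoxia-inducible factor binds DNA at a short core, of which the form ACGTG was searched for and the form GCGTG was not. Of the list members called higher that held ACGTG before their starts, the 5 with the largest differences were taken. Stretches of these are shown with ACGTG in capitals (CACGT where it lies on the other strand). They are 61 bases long, from RefSeq on GRCm38.p6, at chr12:54204064-54204124 on the minus strand for Egln3, chr11:54100818-54100878 on the plus strand for P4ha2, chr8:124949290-124949350 on the minus strand for Egln1, chr14:45318603-45318663 on the minus strand for Ero1a and chr4:119108681-119108741 on the plus strand for Slc2a1.
Egln3: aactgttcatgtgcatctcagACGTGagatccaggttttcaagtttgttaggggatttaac
P4ha2: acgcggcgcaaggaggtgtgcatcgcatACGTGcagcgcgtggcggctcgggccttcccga
Egln1: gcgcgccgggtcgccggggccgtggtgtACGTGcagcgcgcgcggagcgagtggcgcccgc
Ero1a: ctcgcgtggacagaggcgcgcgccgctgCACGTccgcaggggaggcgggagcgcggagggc
Slc2a1: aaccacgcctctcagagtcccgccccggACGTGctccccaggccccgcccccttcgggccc
P4ha2, a collagen prolyl hydroxylase, was higher by 0.94 ± 0.11 and Ero1a, an oxidase of the endoplasmic reticulum, by 0.83 ± 0.07. ACGTG or CACGT occurred in 15 of the 24 RefSeq windows of list members called higher (62.5%) and in 24 of the 37 windows of the whole list (64.9%), against 23.3% of the windows of all genes tested. It occurred in 25.4% of windows of genes called higher, 28.7% of genes called lower and 22.3% of genes not called. A short core of this kind is a description of the window and not a site. The list was made up of genes of glycolysis and the low oxygen response, so its share of cores reflects that choice. That share is no result about these arrays.

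Of 25 ribosome biogenesis genes and Myc targets, none was called higher and 21 were lower, against 10.7% of all genes, with a median of -0.57. Pno1, which assembles the small subunit, had 9.80, 9.84, 9.79 and 9.50 in rep4, against 10.72, 10.73, 10.68 and 10.60 in rep3. Its rep3 arrays were tight, the groups lay well apart, and the difference was -0.95 ± 0.06 (adjusted p = 0.000121). Rrs1, an assembly factor of the large subunit, differed by -0.91, Mybbp1a, a nucleolar protein, by -0.81 and Nop16 by -0.77. The ribosomal proteins themselves were nearly all not called: of 14, none was called higher and 1 lower, with a median of -0.01. Myc, a transcription factor that drives ribosome synthesis, was called lower at -0.39 ± 0.09 (adjusted p = 0.0151), a call lost in 3 of 14 settings (adjusted p up to 0.0895).

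Of 23 DNA replication genes, none was called higher in rep4 and 14 were lower, with a median of -0.32. The shares over all genes, here and for the lists below, were 12.0% higher and 10.7% lower. Mcm2, a subunit of the replicative helicase, had 10.99, 10.79, 10.69 and 10.68 in rep4, against 11.56, 11.48, 11.43 and 11.32 in rep3, a difference of -0.66 ± 0.05 (adjusted p = 0.000246). Mcm3, of the same helicase, differed by -0.54, Rrm1, of ribonucleotide reductase, by -0.52 and Ung, a uracil glycosylase, by -0.63. Of 35 cell cycle and mitosis genes, 1 was called higher and 11 lower (7 without the PLN pair), with a median of -0.15. Cdc6, which licenses replication origins, differed by -0.54 and Aurka, a mitotic kinase, by -0.55, whereas Cdc25b, a phosphatase for entry into mitosis, was higher by 1.04 ± 0.08. Mki67, the proliferation antigen Ki-67, had a mean level of 11.65 in rep4 and 11.63 in rep3 and was not called. Heat shock genes had 1 of 16 called higher and 9 lower, with a median of -0.22, among them Stip1, a cochaperone, at -0.74 and Hspd1, the mitochondrial chaperonin, at -0.52. Of 14 genes of the Bcl2 family and cell death, 6 were called higher (3 without the MLN or the PLN pair) and 1 lower, with a median of 0.20. Bcl2l11, the death-promoting protein Bim, had 10.38, 10.43, 10.09 and 10.52 in rep4, against 9.38, 9.48, 9.29 and 8.91 in rep3, a difference of 1.09 ± 0.13 (adjusted p = 0.000972), and Bbc3, the related protein Puma, differed by 1.02 ± 0.15. Bcl2l11 has 5 probe sets, all higher. The given one, brightest by a small margin (9.81 against 9.80), differed by 1.09, and the rest by 0.45 to 0.68. With the MLN or the PLN pair left out, the difference was 0.70 and 0.71. Each pair differed by 0.79 or more on the given probe set. Both values therefore come from another probe set, chosen again in those fits.

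Among the genes named for size alone, the increases were led by Gzmg, by Osbpl5, a lipid transfer protein of the oxysterol-binding family, at 2.61 ± 0.30, and by Haao, a dioxygenase of tryptophan breakdown, at 2.52 ± 0.26. Pglyrp1, a peptidoglycan-binding protein of granules, differed by 2.51 ± 0.20, and its levels of 10.15, 9.39, 8.88 and 9.53 in rep4 lay above 7.31, 6.45, 7.15 and 7.01 in rep3. Tmem119 differed by 2.22 ± 0.11, close to the same amount in each organ, and Itga7, a laminin-binding integrin chain, by 2.36 ± 0.19. The decreases were led by Il24 and Il2 and included Akr1c18, a progesterone-metabolising reductase, at -2.31 ± 0.23, its relative Akr1c12 at -1.79 ± 0.22, and Plagl1, a zinc finger factor, at -2.14 ± 0.22. Cd36, a fatty acid carrier, had 6.62, 6.75, 6.63 and 6.29 in rep4, against 8.45, 8.49, 8.54 and 8.53 in rep3, a difference of -1.93 ± 0.15 (adjusted p = 0.000223). Ahr, the receptor for aryl hydrocarbons, which is high in Th17 cells, differed by -1.68 ± 0.15. Lgmn, a lysosomal protease of antigen-presenting cells, differed by -1.73 ± 0.12, again beside the lower dendritic cell markers.

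**Figure D4:**
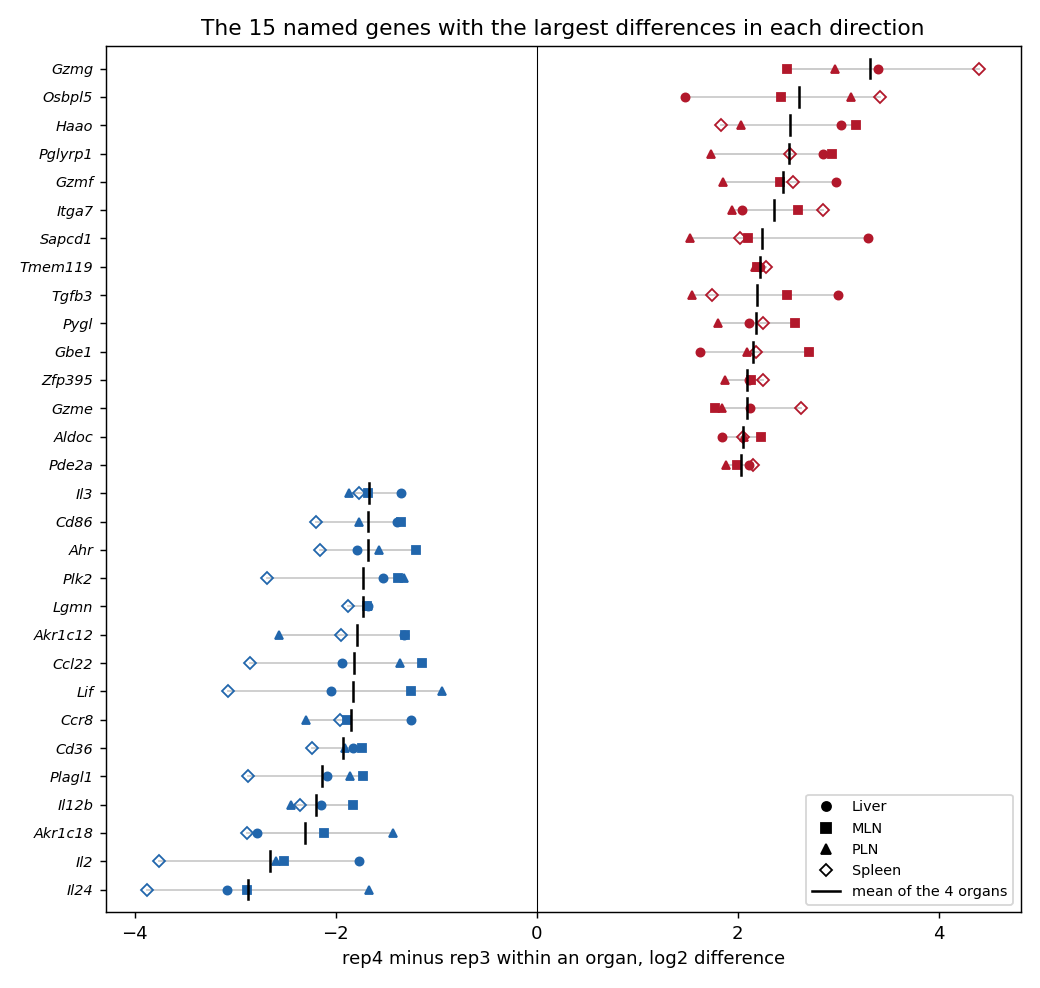
The 15 genes named for the largest increases and the 15 for the largest decreases, with the rep4 minus rep3 log2 difference within each organ on the x axis (marker shape) and the mean of the 4 organs as a black bar. All points of a gene lie on the same side of 0, as the rule for naming required, and the Spleen pair is the most extreme of the 4 for Gzmg, Il24 and Il2.

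The 3 rep2 arrays were placed on the same scale by normalizing all 11 arrays together, and their values are given side by side, without a test. Gzme had 12.47, 11.92, 11.89 and 11.98 in rep4, 10.33, 10.14, 10.03 and 9.34 in rep3, and 9.94, 9.95 and 9.74 in rep2, so that rep2 lay within the range of rep3. Prf1 in rep2, at 10.21, 10.11 and 10.72, lay within or below the range of rep3. Il2 in rep2 was 6.97 in Liver, within the range of rep4, and 7.91 and 7.27 in MLN and PLN, above rep4 and below rep3. Il3 in rep2, at 8.03, 8.11 and 8.70, lay near rep4. Aldoc in rep2, at 10.25, 10.06 and 10.50, and Pygl, at 8.67, 9.23 and 9.37, lay below every rep4 array and above every rep3 array. Other low oxygen genes were not placed so. Egln1 in rep2 was 10.60, 11.31 and 11.39, above every rep4 array in MLN and PLN. Ndrg1 in rep2 was 11.21, 12.07 and 12.32, above every rep4 array in PLN. Cd86 in rep2, at 7.98, 8.30 and 8.22, lay above every rep4 array and below every rep3 array. Ifng, which was not called between rep4 and rep3, lay below both in rep2, at 9.17, 9.24 and 9.10.

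**Figure D5:**
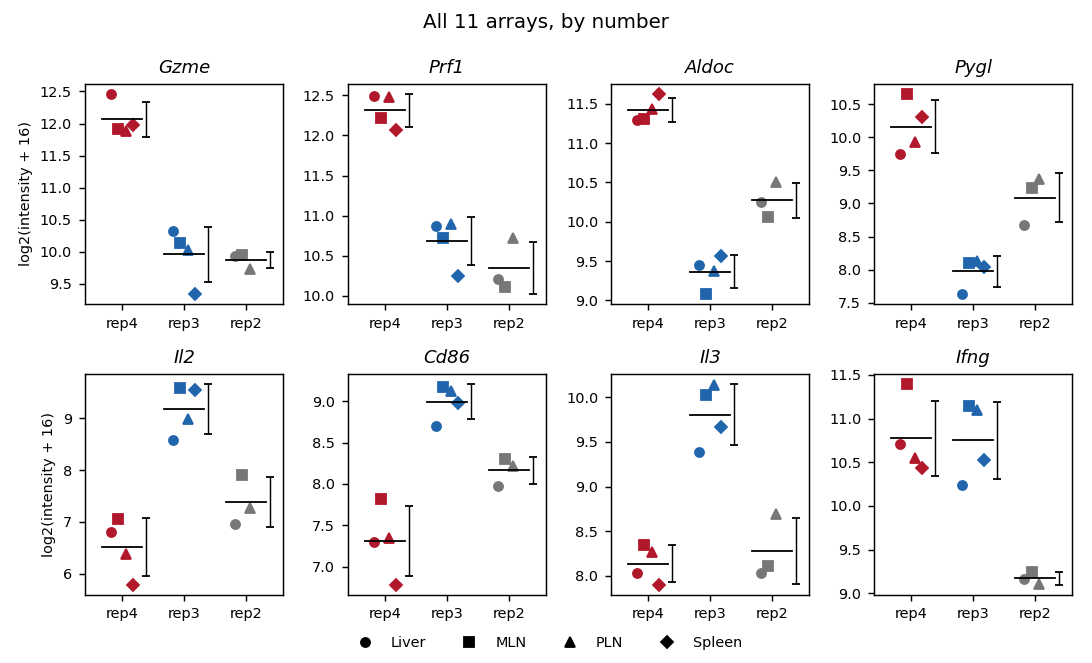
Levels of 8 genes in log2(intensity + 16), with all 11 arrays normalized together, on the rep4 (red), rep3 (blue) and rep2 (grey) arrays. Marker shape gives the organ, the line is the mean and the bar 1 SD over 4, 4 and 3 arrays. Gzme and Prf1 in rep2 lie near rep3, Il3 lies near rep4, Aldoc, Pygl and Cd86 lie between, and Ifng lies below both.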

How the data were processed

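Expression was measured on 11 mouse arrays, and the deposited values are intensities of probe sets on a linear scale, from 0.1 to 21556.3. The authors had scaled these intensities, as read from the values: the mean after trimming 2% at each end was the same on every array to within rounding. The software behind them is not given in the sources used here. Of 22690 probe sets, 64 controls were left out, 20380 had 1 gene symbol, 691 several and 1555 none; symbols were brought to GRCm38.p6 for 20351. The 8 rep4 and rep3 intensities were taken as log2(intensity + 16), quantile normalized, and reduced to the probe set of highest mean for each of 12393 genes. Differences understate the change of dim genes. limma 3.58.1 in R 4.3.3 fitted organ and number (3 residual degrees of freedom) with lmFit and eBayes with a variance trend, two-sided, with Benjamini-Hochberg adjustment over all genes at 0.05. On simulated data the fit called 57 of 100 genes changed by 1 and 17 of 100 changed by 0.5. It also called 4 unchanged genes. Few genes were changed in the simulation, so these shares need not hold for the arrays. A gene that was not called may still differ by such amounts. Precision is limited by the number of arrays.

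Groups follow the number in the titles and pairs the organ of the dendritic cells. A naming rule gave 204 genes, not all of which are printed. It took the 15 genes with the largest called differences in each direction among the upper 60% by level that moved alike in all 4 pairs. It added up to 4 members of smallest p per list, and a fixed set of 44 effector genes, of which 39 were measured. Other list members and genes were chosen after their values were seen. The tallies of kept calls and of arrays set apart cover 156 genes, a choice made with the values known. The 42 lists (30 gene lists and 12 marker lists) had 802 entries, 698 of them measured. Members, lists and tests were chosen with earlier results of these data known. Alternatives covered the organ block, the arrays, scaling, pseudocount, level filter, probe sets, variance trend, array weights and each pair left out. Promoter windows are from RefSeq, 250 bases before to 50 after a start.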

Additional observations from a re-analysis of the deposited data

Results flagged for a closer look

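Among the 312 sets of 4 arrays behind the named genes, 15 (4.81%) held an array set apart from the other 3 by most of the range of the set, and chance alone gives about 1 in 20. In rep4, the MLN array stood apart for Itgb7 at 12.03 and Gzmn at 6.19, above the other organs, and for Mcm3 at 11.14 and Lmna at 6.85, below them. The Liver array of rep4 stood apart for Gzme at 12.46 and H2-Ab1 at 8.09, and the Spleen array for Pno1 at 9.50. In rep3, the Liver array stood apart for Cxcr3 at 8.91, Tnfsf8 at 8.67 and Mki67 at 11.78, above the other organs, and for Pygl at 7.63, below them. The MLN array of rep3 stood apart for Gbe1 at 6.68, Psph at 10.39 and Ighm at 13.30, and the Spleen array for Pdlim4 at 7.86.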

How the results depend on the processing

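The 2812 calls between rep4 and rep3 were most sensitive to the variance trend: without it 1591 genes were called, 918 higher and 673 lower in rep4, of which 1520 were among the 2812. Leaving out 1 organ pair gave 1861 to 2098 calls (996 to 1112 higher and 865 to 986 lower), with 2 residual degrees of freedom; fewest, 1861, without the MLN pair. Without the organ block 2775 genes were called, and under the other 8 alternatives 2174 to 3081. The 2 calls between organs became 45 with all 11 arrays, 15 in the upper 60% of genes by level, 1 with a pseudocount of 64, 1 with the mean of probe sets, none without the variance trend (limma), and 0 to 2 with a pair left out. Of 131 named genes that were called, 112 of the 124 tested under all 14 alternatives and 4 of the 7 tested under 13 (too dim for the level filter) kept their call in each. With the mean of probe sets, 11 of them differed by over 1.5 times from the value given, among them Prf1 (0.84), Ahnak (0.67), Foxo1 (0.33), Plagl1 (-1.32) and Hif1a (-0.75). Calls of Tbx21, Cxcr3 and Eomes were lost without the Liver or the MLN pair, Tbx21 and Cxcr3 also without the Spleen pair and Eomes without the PLN pair. Calls of Ccr7 and Ctla4 were lost without the MLN, PLN or Spleen pair, that of Ctsg without the Liver or Spleen pair, and that of Gzmn without the MLN or PLN pair. Lmna differed by 0.0414 with the mean of probe sets, turned from -0.42.

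Genes with differences near 0 changed sign: Cd44 was -0.00278 with intensities as deposited, -0.00332 with median centring, -0.0531 with the mean of probe sets, -0.00842 with array weights and -0.106 to 0.18 with a pair left out. With a pair left out, Ccl1 ran from -0.0109 to 0.436, Ccl4 from -0.116 to 0.164, Ifng from -0.132 to 0.215, Ccl3 from -0.442 to 0.0307, Gzmb from -0.0665 to 0.0108, Itga4 from -0.186 to 0.405, Xcl1 from -0.539 to 0.17, Pdcd1 from -0.21 to 0.0656, Ldha from -0.0155 to 0.0213, Mcpt4 from -0.128 to 0.825 and Mki67 from -0.0162 to 0.0571. The value of -0.186 for Itga4, without the MLN pair, reflects a change of probe set. On the given probe set (mean level 7.02) the MLN pair differed by 0.006, while one of level 6.80 differed by -0.19 over all pairs. The median of the immediate early genes ran from -0.05 to 0.08 and that of the interferon response genes from -0.05 to 0.06. Members called lower numbered 9 to 12 among dendritic cell genes, 14 to 23 among ribosome biogenesis genes and 7 to 15 among DNA replication genes, and members called higher 16 to 21 among glycolysis and hypoxia genes. Other counts of 1 or 2 list members moved by 1 or 2 with a pair left out. The causes of these changes were not tested. No paired analysis by replicate number was possible because each number is itself a group; pairs follow the organ.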

Other observations

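The remaining gene groups held smaller or mixed differences. Over all genes 12.0% were called higher and 10.7% lower, and several of the counts here lie near those shares. Of 17 genes of TGF-beta ligands, receptors and Smads, 4 were called higher in rep4 and 2 lower, with a median of 0.01. Tgfb3, a ligand of the family, had levels of 7.66, 8.95, 8.25 and 7.94 in rep4 (Liver, MLN, PLN and Spleen), against 4.67, 6.46, 6.70 and 6.20 in rep3, a difference of 2.19 ± 0.26 (limma adjusted p = 0.00106). Tgfbr2, the receptor that binds the ligands, was higher by 0.93 and Smad7, which inhibits the pathway, by 0.58. Of 26 genes of cholesterol and fatty acid synthesis, 11 were called higher and 4 lower, with a median of 0.19. Mvd, of the mevalonate pathway, was higher by 0.49 and Scd1, a desaturase, by 0.50 (0.11 on a dimmer probe set). Fasn, fatty acid synthase, differed by -0.52. Of 29 amino acid response genes, 3 were called higher and 7 lower, with a median of -0.11, including the serine synthesis genes Psat1 (-0.66, and -0.14 on a second bright probe set) and Psph (-0.68) and, in the other direction, Vldlr, a lipoprotein receptor, at 1.74. Of 20 genes of the unfolded protein response, 2 were called higher and 5 lower, with a median of -0.03, among them Xbp1, its transcription factor, at -0.75. Of 30 respiratory chain genes, 1 was called higher and 5 lower, with a median of -0.06, and Cyc1, cytochrome c1, differed by -0.41. Of 27 interferon response genes, 6 were called higher and 3 lower, with a median of 0.02, and Gbp3, a guanylate-binding protein, was higher by 0.56. Of 11 genes of class I presentation, 3 were called higher and none lower, with a median of -0.04, among them Tap2, a peptide transporter chain, at 0.52. Of 23 activation and immediate early genes, 6 were called higher and 5 lower, with a median of -0.02, and Jun, a subunit of AP-1, was higher by 0.89 while Nr4a1, an orphan nuclear receptor, differed by -0.75. Without the Liver pair 2 and without the PLN pair 3 interferon response genes were called higher, and without the MLN or the Spleen pair none lower. Without any 1 pair no TGF-beta gene was called lower; without the MLN or the PLN pair 1 cholesterol and fatty acid gene was, and without the Spleen pair 4 amino acid response genes were.

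Markers of other cells gave the following counts, beside 12.0% of all genes called higher and 10.7% lower. Several of them lie near those shares. Of 11 markers of B cells and plasma cells, 2 were called higher and 2 lower. Of 20 macrophage and monocyte markers, 1 was called higher and 3 lower, of 10 neutrophil markers none and 2, of 10 mast cell and basophil markers 2 and none, of 8 erythroid and platelet markers 1 and none, and of 12 stromal and endothelial markers 1 and none. Without any 1 pair no B cell or macrophage marker was called higher; without the MLN, PLN or Spleen pair 1 macrophage marker was called lower. None of 2 gamma delta T cell markers and none of 8 hepatocyte markers was called. Kit, the stem cell factor receptor of mast cells, had 9.43, 9.22, 9.76 and 9.86 in rep4, against 8.53, 8.33, 8.78 and 8.61 in rep3, and was higher by 1.004 ± 0.09 (limma adjusted p = 0.00035). A dimmer Kit probe set differed by 0.47.

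The lower cytokine genes Il4, Il13, Il5, Csf2 and Il3 lie in a single region of chromosome 11, which was looked up after the values were seen. The RefSeq table of GRCm38.p6 lists 12 protein-coding genes from Il4 to Il3, of which 5 are these cytokine genes. P4ha2, a prolyl hydroxylase, stands next to Csf2 and was called higher at 0.94, while Csf2 differed by -1.62. Pdlim4 was called lower at -0.95 (limma adjusted p = 0.0324), a call lost in 4 of 14 alternative settings (adjusted p up to 0.125). Rad50, a DNA repair gene that carries control elements of the neighbouring cytokine genes, differed by 0.20 (limma adjusted p = 0.0516) and Irf1, a factor of the interferon response, by -0.05 (limma adjusted p = 0.518). The remaining 3 genes of the region were not called.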
